A study of Mus musculus with 4 samples.

Results

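The genes examined encode the signalling kinases, break sensors and repair enzymes of the DNA damage response, the system in which cyclin G1 and cyclin G2 have been placed by earlier work on protein phosphatase 2A. A list of 51 genes was drawn up by name, and a gene was taken when probes on the array carried exactly that name. This found 50 of the 51 genes, with 66 probes, among 31806 gene names and 39429 probes on the array. Rad51c is not analysed here. All 50 genes were well above background on all 4 arrays, 36 of them through 1 probe and 14 through more. They were read as 9 groups by role, from checkpoint kinases to damage tolerance.

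Total RNA of mouse embryonic fibroblasts (MEFs), which are cells grown out from dissociated embryos, was labelled with Cy3 and hybridised to 4 single-color Agilent arrays. All came from C57BL/6J mice and were harvested in logarithmic growth phase with no damaging agent. The array labelled G2KO holds CycG2-/- MEFs and its WT array CycG2+/+ MEFs. The DKO array holds CycG1-/-CycG2-/- MEFs and its WT array CycG1+/+CycG2+/+ MEFs. Each genotype of each comparison has 1 array, so the WT arrays are here called the G2-paired and the DKO-paired WT array. How many embryos stand behind each RNA, and at which passage it was taken, is not given in the sources used here. The study attributes raised Xist RNA in G2KO MEFs over WT to the G2KO cells being female. Sex and genotype therefore cannot be told apart in that comparison, and Xist is not reported here. In the CycG1 allele, the coding exons were replaced by a neomycin cassette.

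In an undamaged cell the proteins of this system lie ready, and their activity is set largely by phosphorylation and by recruitment to the lesion. ATM answers to double-strand breaks and ATR to single-stranded DNA at stalled forks, and both act through CHK2 and CHK1. Broken ends are then rejoined directly or copied from the sister chromatid, crosslinks are unhooked by the Fanconi anaemia proteins, and damaged bases are cut out by the excision pathways. Transcript levels of many recombination and Fanconi genes are known to be highest in S and G2 phase. A transcript level therefore says nothing of whether a checkpoint was active.

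The level of a gene is its signal divided by the 75th percentile of its array, a log2 ratio is the difference between arrays of the log2 level, and a level of 1 thus lies at that percentile. Different probes bind with different strength, so levels are compared between arrays and not between genes. With 1 array on each side no ratio has a replicate error. A limma fit that takes both WT arrays as 1 group has 1 residual degree of freedom. It called 0 of the 50 genes for either knockout, adjusted or unadjusted at a p of 0.05, and the ratios are given as descriptions. The ratio between the WT arrays shows how far MEFs that are both labelled WT differed. The median SD between repeated spots of a probe was 0.0752 to 0.122 on the log2 scale, and it covers the hybridisation only.

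The labels were checked first. Ccng1, which encodes cyclin G1, had levels of 1.98 on the array labelled G2KO, 9.45 on the G2-paired WT array, 0.00685 on the DKO array, where it was not well above background, and 1.66 on the DKO-paired WT array. It was at least 228-fold lower in DKO MEFs than on their WT array. Ccng2, which encodes cyclin G2, had levels of 0.0910, 0.104, 0.0619 and 0.0806 in the same order, so its probe did not set the knockout arrays apart. Which part of Ccng2 the mutation removes is not given in the sources used here. Over 19466 genes well above background on all arrays, the array labelled G2KO lay nearer to the DKO-paired WT array (SD of the log2 ratios 0.538) than to its own WT array (0.878). En2 had levels of 0.0260 on the array labelled G2KO and 14.8 on the array labelled WT beside it, Gpm6b 0.142 and 8.92, and Thy1 53.1 and 0.461. The study lists En2, Foxa2 and Sox2 as upregulated in G2KO MEFs, which is the opposite of the direction that the sample labels give here. Every direction in the comparison of the array labelled G2KO rests on its labels and would turn if they were exchanged, and the G2-paired WT array would then be the knockout array. The arrays differed in cell type markers as well. The 12 fibroblast markers summed to levels of 323 to 513, with 2 of them dim on the G2-paired WT array. The sums hide opposite members. In DKO MEFs 7 of the 12 were at least 2-fold lower (9.61% of all genes) and 1 higher (10.6%) than on their WT array, with a median log2 ratio of -2.11. On the DKO-paired against the G2-paired WT array 8 were at least 2-fold higher (11.7%), with a median of 2.96. The 10 mesothelial markers summed to 150 on the DKO array, with 0 dim, and to 0.662 to 1.58 on the others, with 5 to 7 dim. The 8 neural progenitor markers summed to 56.7 on the G2-paired WT array, with 1 dim, and to 1.5 to 5.34 elsewhere. The 6 endothelial markers summed to 3.09 to 4.44, with Tie1 and Emcn dim on all arrays, and the 6 macrophage markers to 12.3 to 23.3. The part of these differences in the results below was not tested. In a bulk sample, fewer cells of a type and less RNA per cell cannot be told apart.

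For 28 of 50 genes (56%) the highest level was less than 2-fold above the lowest, against 62.9% of all genes, and the median range was 0.87 on the log2 scale against 0.80. The G2-paired WT array had the highest level of 35 of the 50 genes, where it was the highest for 36.7% of all genes. The DKO-paired WT array was the highest for 2 genes (22.2% of all genes), the DKO array for 8 (28.6%) and the array labelled G2KO for 5 (12.5%). The lowest level fell on the DKO array for 25 genes (31.0% of all genes), on the DKO-paired WT array for 15 (17.6%), on the array labelled G2KO for 8 (28.1%) and on the G2-paired WT array for 2 (23.4%). The members' levels summed to 77.9 on the array labelled G2KO, 105 on its WT array, 64.5 on the DKO array and 69.1 on its WT array.

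**Figure D1:**
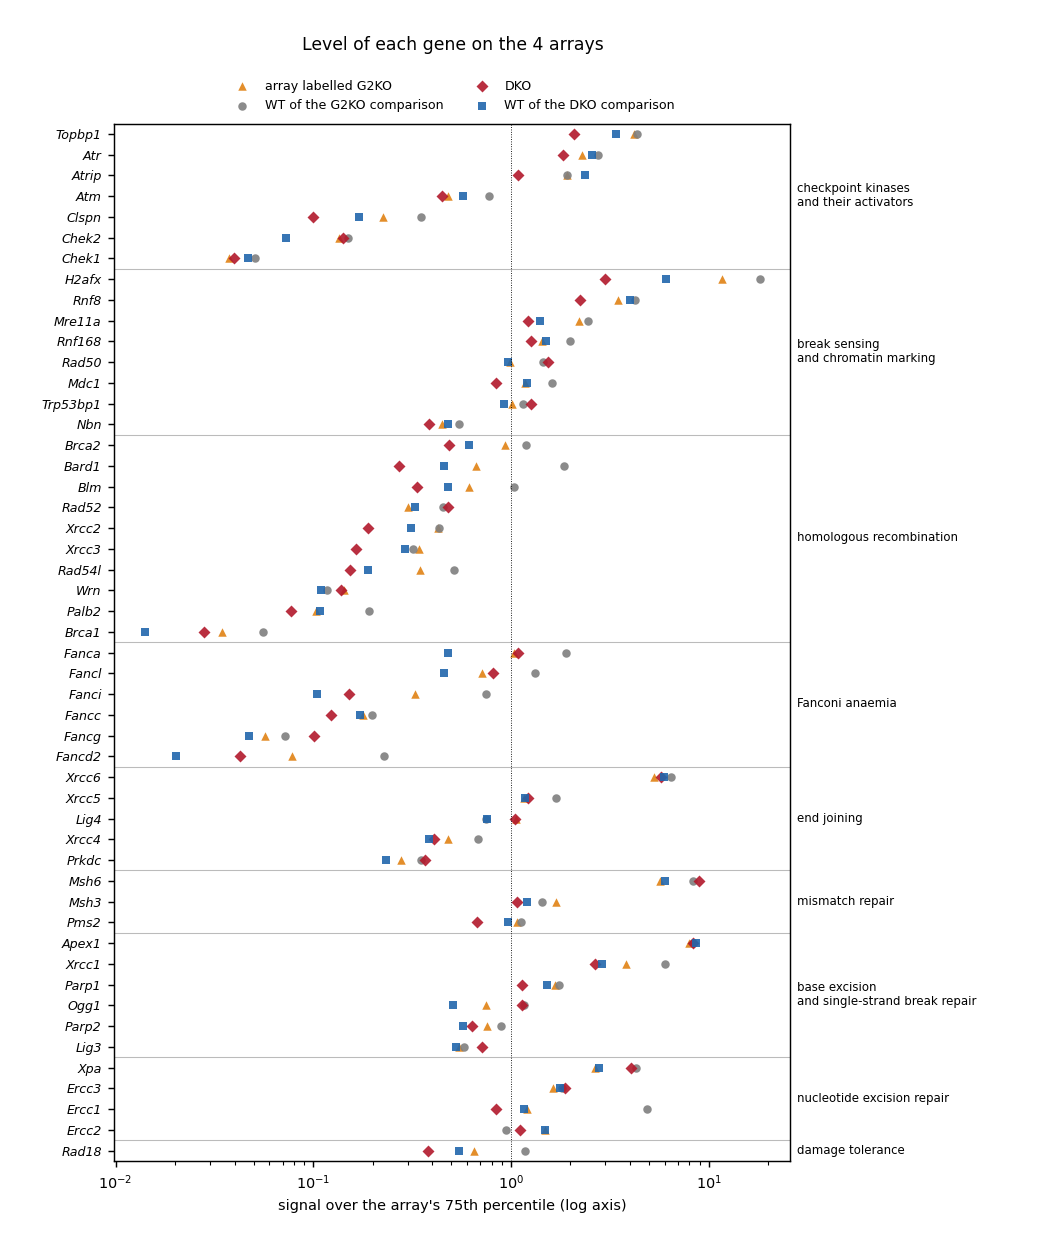
Level of each of the 50 genes on the 4 arrays, as signal over the 75th percentile of the array on a log axis, 1 row per gene and 1 marker per array, in the 9 groups by role. The grey circles of the G2-paired WT array are the rightmost marker for 35 of the 50 genes, and the spread is widest for Fancd2 and Fanci; positions of different genes are not comparable because each has its own probe.

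Between DKO MEFs and their WT array, 4 genes were at least 2-fold higher (10.6% of all genes compared were) and 2 at least 2-fold lower (9.61% were). This is 12% of the members, against 20.3% of all genes in either direction. The median log2 ratio of the 50 genes was -0.19, against 0.03 for all genes, with 21 genes above and 29 below 0, where 47.5% of all genes were below 0. Between the array labelled G2KO and its WT array, 0 genes were at least 2-fold higher (8.74% of all genes) and 4 at least 2-fold lower (8.37%), or 8% of the members against 17.1% in either direction. The median was -0.40 against -0.17 for all genes, and 44 of the 50 were below 0, as were 60.6% of all genes. By the labels, the widest of the 3 differences was that between the WT arrays. On the DKO-paired WT array 0 genes were at least 2-fold higher (11.7% of all genes) and 15 at least 2-fold lower (9.92%), or 30% of the members against 21.6% in either direction. The median was -0.50 against -0.08, and 46 of 50 genes were below 0, as were 55.4% of all genes. The array labelled G2KO and the DKO-paired WT array differed by 2-fold at 4 of the 50 genes, or 8% against 9.18% of all genes. The median log2 ratio between this pair was 0.24, against -0.07 for all genes. These shares of all genes include genes dim on 1 array of a pair, which no member was. Over the 19466 genes well above background on all 4 arrays, 16.2% passed 2-fold in DKO MEFs, 12.9% on the array labelled G2KO and 18.4% between the WT arrays. On that set 6.24% did so between the array labelled G2KO and the DKO-paired WT array, below the 8% of the members. With the labels of the G2KO comparison exchanged, this last pair would be the WT arrays, and the 15 genes would mark a difference between a knockout and a WT array. These comparisons share arrays and are given side by side only. Without scaling between arrays, Blm, Chek2, Clspn, Ogg1, Rad18 and Xrcc1 no longer passed 2-fold between the WT arrays, with ratios of -0.95 to -0.80. In DKO MEFs Fancd2 fell just under 2-fold, which left 3 genes higher. On the array labelled G2KO, Bard1 and Fanci no longer passed, with -0.98 and -0.70. Ercc2 newly passed there, the 1 gene at least 2-fold higher. The same setting moved the median of all genes on that array from -0.17 to 0.33, and with it the medians of 6 of the 8 groups with more than 1 gene from below to above 0, all but recombination (-0.08) and Fanconi anaemia (-0.40). In DKO MEFs it turned the medians of end joining and base excision repair, both near 0, to -0.01 and -0.03. In all, 17 genes passed 2-fold in at least 1 of the 3 comparisons and 33 in none.

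**Figure D2:**
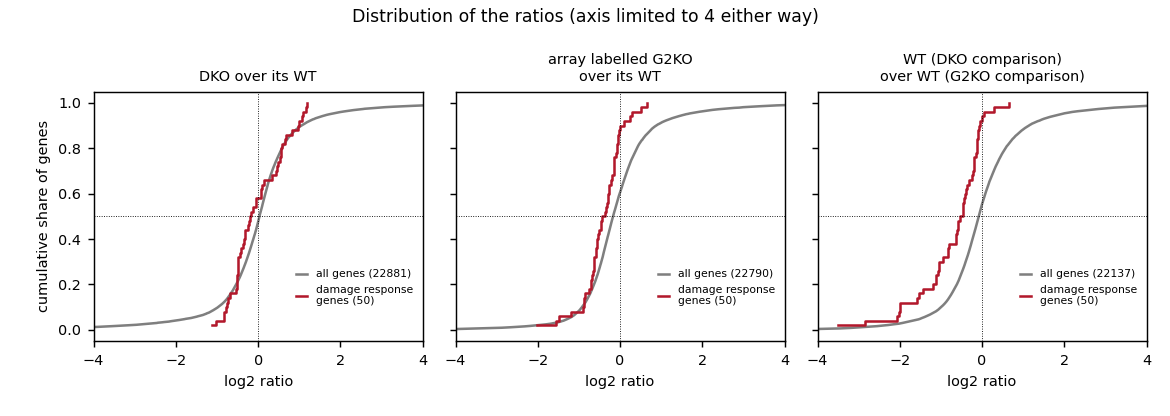
Cumulative share of genes (vertical axis) by log2 ratio (horizontal axis, limited to 4 either way) in the 3 comparisons, for the 50 damage response genes in red and for all genes compared in grey. The red curve runs near the grey one for DKO (medians -0.19 and 0.03) and lies to its left for the WT arrays (medians -0.50 and -0.08).

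Of the checkpoint kinases, Atm, Atr and Chek1 stayed within 2-fold in the 3 comparisons and Chek2 did not. Atm, the kinase of double-strand breaks, had log2 ratios of -0.37 in DKO MEFs against their WT, -0.70 on the array labelled G2KO against its WT and -0.43 between the WT arrays. Atr, its counterpart at stalled forks, had -0.49, -0.28 and -0.11. Chek1, the kinase below ATR, had levels of 0.0375 on the array labelled G2KO and 0.0508 on the G2-paired WT array. On the DKO array its level was 0.0398 and on the DKO-paired WT array 0.0467, a narrow range. Its only probe gave the lowest signals of the group, where the lowest levels counted as well above background were 0.0066 to 0.0102. The largest difference of the group in DKO MEFs was in Atrip, the partner that brings ATR to single-stranded DNA (chromosome 9 of mm9, probe at 108962343 to 108962402). Its level was 1.09 on the DKO array, 2.36 on the DKO-paired WT array, 1.93 on the array labelled G2KO and 1.93 on the G2-paired WT array. The DKO array thus stood below all the others, 2.16-fold below its own WT and with a log2 ratio of -0.82 against the G2-paired WT array.

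Topbp1, the activator of ATR, was likewise lowest on the DKO array, at 2.09 against 3.39 on its WT array, 4.20 on the array labelled G2KO and 4.37 on the G2-paired WT array. Clspn, the adaptor through which ATR reaches CHK1, had levels of 0.226 on the array labelled G2KO, 0.351 on the G2-paired WT array, 0.0996 on the DKO array and 0.170 on the DKO-paired WT array. It was 2.06-fold lower on the DKO-paired than on the G2-paired WT array, and 1.71-fold lower in DKO MEFs than on their WT array. Chek2, the kinase below ATM, took the other course. Its level was 0.136 on the array labelled G2KO, 0.151 on the G2-paired WT array, 0.141 on the DKO array and 0.0724 on the DKO-paired WT array. Only the last stood apart, which gave a log2 ratio of 0.96 for DKO and of -1.06 between the WT arrays. Over the 7 genes the median log2 ratio was -0.49 in DKO MEFs, -0.28 on the array labelled G2KO and -0.36 between the WT arrays. In DKO MEFs 6 of 7 were below 0, as were 47.5% of all genes.

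Among the genes that sense breaks and mark chromatin, H2afx had the widest range. It encodes the histone H2AX, whose phosphorylated form marks the chromatin around a break, and its probe lies on chromosome 9 of mm9 at 44144033 to 44144092. Its level was 11.7 on the array labelled G2KO, 18.1 on the G2-paired WT array, 2.99 on the DKO array and 6.10 on the DKO-paired WT array. The 4 arrays were thus spread over 6.06-fold, and the DKO array was lowest against either WT array, by 2.04-fold against its own and with a log2 ratio of -2.60 against the other. The array labelled G2KO lay 1.55-fold below its own WT array but above the DKO-paired one. Background correction, quantile and median scaling and no scaling left the ratio in DKO MEFs at -1.11 to -1.02.

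The genes that read the H2AX mark varied less. Mdc1, which binds it, had log2 ratios of -0.52, -0.47 and -0.42 in DKO MEFs, on the array labelled G2KO and between the WT arrays. The ubiquitin ligase genes Rnf8 and Rnf168 had -0.84 and -0.25 in DKO MEFs, and Trp53bp1, whose product 53BP1 is recruited by their marks, had 0.46. Of the MRN complex, which binds the broken end and activates ATM, Rad50 was 1.60-fold higher in DKO MEFs than on their WT array, and Mre11a and Nbn were 1.15-fold and 1.25-fold lower. Nbn had levels of 0.446 on the array labelled G2KO, 0.547 on the G2-paired WT array, 0.385 on the DKO array and 0.480 on the DKO-paired WT array. All 8 genes of the group were lower on the array labelled G2KO than on its WT array, by at most 0.63 on the log2 scale. Of all genes, 60.6% were lower there, and without scaling between arrays the median of the group lay above 0.

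**Figure D3:**
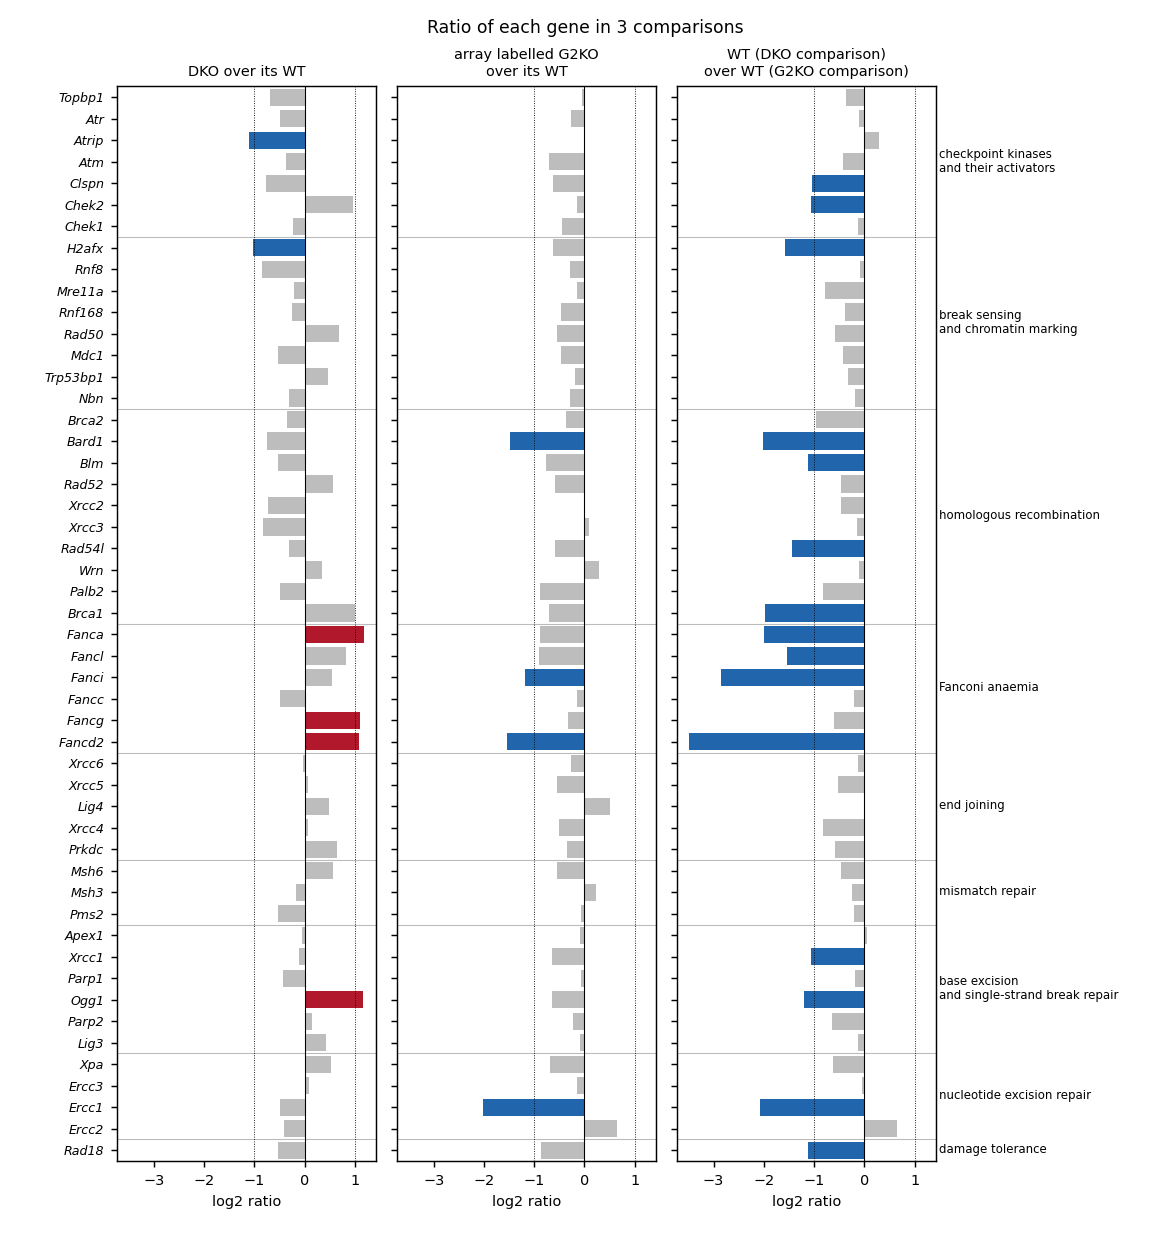
Log2 ratio of each of the 50 genes in DKO MEFs over their WT (left), the array labelled G2KO over its WT (middle) and the DKO-paired over the G2-paired WT array (right). Dotted lines mark 2-fold, and bars past it are red where higher and blue where lower; the 4 red bars are all in the left panel, and the right panel holds 15 blue ones.

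All recombination genes were lower on the DKO-paired than on the G2-paired WT array, as were 55.4% of all genes. Wrn was lower by only 0.11 on the log2 scale. The 10 genes had a median log2 ratio of -0.89 between the WT arrays, with 4 at least 2-fold lower (9.92% of all genes). The median was -0.41 in DKO MEFs and -0.58 on the array labelled G2KO, with 0 and 1 genes past 2-fold (20.3% and 17.1% of all genes). Bard1, the partner of BRCA1, had levels of 0.668 on the array labelled G2KO, 1.86 on the G2-paired WT array, 0.272 on the DKO array and 0.459 on the DKO-paired WT array. The G2-paired WT array stood far above the rest, 4.04-fold above the DKO-paired one and 2.78-fold above the array labelled G2KO. Its probes disagreed, however. The probe used (chromosome 1 of mm9, 71074294 to 71074353) gave -2.02 between the WT arrays, and another (71074902 to 71074961) gave -0.75. In DKO MEFs these probes gave -0.75 and 0.18. Only probe pairs well above background on both arrays of a comparison were set side by side. This Bard1 pair was the only 1 of 14 such pairs that differed by more than 1 between the WT arrays. In the other comparisons 0 such pairs did so.

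Brca1, the recombination gene with the lowest signal of its group, had levels of 0.0344 on the array labelled G2KO, 0.0559 on the G2-paired WT array, 0.0281 on the DKO array and 0.0141 on the DKO-paired WT array. The last lies close to 0.0102, the lowest level of any probe counted as well above background on that array. The log2 ratio was 0.996 in DKO MEFs, just under 2-fold, and -1.99 between the WT arrays, and with normexp background correction it was 0.48 and -0.92. The 60-base probe is shown because it crosses an intron (chr11:101359283-101363319 of mm9, minus strand, a span of 4037 bases) and so reads spliced Brca1 RNA.
Brca1 probe: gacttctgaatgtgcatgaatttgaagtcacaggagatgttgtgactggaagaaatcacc

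Brca2, a central gene of recombination, had levels of 0.928 on the array labelled G2KO, 1.20 on the G2-paired WT array, 0.486 on the DKO array and 0.616 on the DKO-paired WT array. It fell just inside 2-fold between the WT arrays, with -0.96. Rad54l, a motor protein of strand invasion, had levels of 0.346, 0.516, 0.153 and 0.190 in the same order, and Blm, the Bloom syndrome helicase, had 0.615, 1.04, 0.333 and 0.478. Both followed the order of Brca2, with the G2-paired WT array highest and the DKO array lowest. Palb2, which links BRCA1 to BRCA2, had -0.48 in DKO MEFs, -0.89 on the array labelled G2KO and -0.82 between the WT arrays. Its other probe gave -1.13 and -1.08 in the latter comparisons, past 2-fold in both. Wrn, the Werner syndrome helicase, and Rad52 were the other way in DKO MEFs, with 0.35 and 0.56.

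The Fanconi anaemia genes differed most between the arrays. With the probes used, their median log2 ratio between the WT arrays was -1.76. There 6 of 6 were below 0 (55.4% of all genes) and 4 at least 2-fold lower (9.92%). In DKO MEFs against their own WT array the median was 0.95, and against the G2-paired WT array it was -0.76. Against their own WT array 5 of 6 were above 0, where 47.5% of all genes were below 0, and 3 were at least 2-fold higher (10.6% of all genes). The direction of the group in DKO MEFs therefore depended on which WT array was used, under every scaling tried. On the array labelled G2KO the median was -0.89 against its own WT array and 0.87 against the DKO-paired one.

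Fancd2 encodes the protein that is ubiquitinated and loaded onto a crosslink (probe on chromosome 6 of mm9, 113541170 to 113541229). Its level was 0.0779 on the array labelled G2KO, 0.228 on the G2-paired WT array, 0.0425 on the DKO array and 0.0202 on the DKO-paired WT array. The DKO-paired WT array was lowest, 11.3-fold below the G2-paired one and 2.11-fold below DKO, and its signal lay near background. With normexp background correction the log2 ratio in DKO MEFs was 0.67 in place of 1.07. Fanci, the partner of Fancd2 (chromosome 7, 86595076 to 86595135), had levels of 0.328, 0.749, 0.152 and 0.104 in the same order of arrays. It kept that order, with a difference of 7.19-fold between the WT arrays and 1.46-fold between DKO MEFs and their WT.

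The core complex of the pathway attaches ubiquitin to Fancd2 and Fanci. Fancl, its ubiquitin ligase, had levels of 0.710 on the array labelled G2KO, 1.33 on the G2-paired WT array, 0.811 on the DKO array and 0.459 on the DKO-paired WT array. Fanca, a core subunit (chromosome 8, 125792210 to 125792269), had 1.03, 1.91, 1.09 and 0.478, and was 2.28-fold higher in DKO MEFs than on their WT array, the largest upward ratio of the 50 genes there. For both, the array labelled G2KO and the DKO array lay near each other and between the WT arrays. Fancg, another core subunit, was the exception of the group because the DKO array was highest, with levels of 0.0573, 0.0718, 0.101 and 0.0471. It was higher in DKO MEFs against either WT array, with log2 ratios of 1.10 and 0.49, the first of them 0.77 with normexp background correction. Fancc had -0.49, -0.15 and -0.20 in the 3 comparisons with the probe used. Its other probe gave 0.68 on the array labelled G2KO against its WT array and 0.62 between the WT arrays. The sign of Fancc in these comparisons thus depended on the probe. The other probe was dim on the DKO array, and its levels elsewhere were only 0.0167 to 0.0267. All genes of the group were below 0 between the WT arrays only with the probes used. The Fancg probe is shown because it too crosses an intron (chr4:43016751-43017436 of mm9, minus strand, a span of 686 bases).
Fancg probe: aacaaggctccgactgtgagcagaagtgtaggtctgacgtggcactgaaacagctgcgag

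With the probes used, end joining and mismatch repair stayed within 2-fold in the 3 comparisons, as did excision repair apart from Ogg1, Xrcc1 and Ercc1. Xrcc6, which encodes the Ku70 subunit that binds broken ends, had levels of 5.32 on the array labelled G2KO, 6.45 on the G2-paired WT array, 5.77 on the DKO array and 5.93 on the DKO-paired WT array. Prkdc, the catalytic kinase that Ku recruits, had 0.277, 0.352, 0.367 and 0.234 in that order. In the 5 end joining genes 0 ratios passed 2-fold, and the medians were 0.07 in DKO MEFs, -0.34 on the array labelled G2KO and -0.53 between the WT arrays. Lig4, the ligase of the pathway, was the only 1 of the 5 above 0 on the array labelled G2KO, with 0.50.

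Msh6 and Msh3 encode proteins that recognise mismatched bases. Msh6 had levels of 5.67 on the array labelled G2KO, 8.33 on the G2-paired WT array, 8.95 on the DKO array and 6.01 on the DKO-paired WT array. Msh3 had log2 ratios of -0.17, 0.24 and -0.25 in the 3 comparisons. Pms2, an endonuclease subunit of the same pathway, had levels of 1.08, 1.12, 0.673 and 0.971, and was lowest in DKO MEFs. Of these 3 genes, Pms2 and Msh6 had the DKO array at the opposite ends of their ranges.

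In base excision and single-strand break repair, Apex1, the endonuclease that cuts at abasic sites, hardly varied, with levels of 7.93 on the array labelled G2KO, 8.38 on the G2-paired WT array, 8.36 on the DKO array and 8.67 on the DKO-paired WT array. Ogg1, the glycosylase that removes oxidised guanine (chromosome 6, 113284105 to 113284164), had 0.751, 1.17, 1.14 and 0.512. It was 2.23-fold higher in DKO MEFs than on their WT array but had a log2 ratio of -0.03 against the G2-paired WT array. Xrcc1, the scaffold of the pathway, had 3.84, 6.04, 2.65 and 2.87, and was 2.10-fold lower on the DKO-paired than on the G2-paired WT array. Lig3, the ligase that XRCC1 carries, had levels of 0.545, 0.580, 0.711 and 0.530 with the probe used, a log2 ratio of 0.42 in DKO MEFs, and 1.18 with its other probe, so whether it passed 2-fold depended on the probe. Parp1 and Parp2, which sense nicks, had -0.43 and 0.14 in DKO MEFs.

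In nucleotide excision repair only Ercc1 of the 4 genes passed 2-fold. Ercc1 encodes a subunit of the nuclease that cuts on the upstream side of a bulky lesion (chromosome 7, 19935530 to 19935589). Its level was 1.21 on the array labelled G2KO, 4.90 on the G2-paired WT array, 0.838 on the DKO array and 1.17 on the DKO-paired WT array. A single array stood apart, the G2-paired WT, at 4.06-fold above the array labelled G2KO and 4.19-fold above the DKO-paired WT array. The other 3 arrays lay within 1.5-fold of each other. This was the only 1 of the 50 genes past 4-fold on the array labelled G2KO. Of the other genes, Xpa, which checks the lesion, had levels of 2.67, 4.29, 4.03 and 2.78, and Ercc2, a helicase of TFIIH, had 1.49, 0.946, 1.12 and 1.49. Ercc2 was the lowest on the G2-paired WT array, against the course of most members. Rad18, the ubiquitin ligase that starts bypass of lesions at the fork, had levels of 0.648, 1.18, 0.379 and 0.545, and was 2.17-fold lower on the DKO-paired than on the G2-paired WT array.

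Genes of the cell cycle differed between the arrays as well. Of 14 mitosis genes, 14 were at least 2-fold lower on the DKO-paired than on the G2-paired WT array (9.92% of all genes), with a median log2 ratio of -3.18. On the array labelled G2KO against its WT, 7 were so (8.37%), with a median of -1.001. In DKO MEFs against their WT, 0 were so (9.61%) and 1 was higher (10.6%), with a median of 0.40. The summed level of the mitosis genes was 68.2 on the array labelled G2KO, 122 on its WT array, 17.6 on the DKO array and 14.3 on its WT array. This order was shared by 5 of the 50 genes (4.38% of all genes), namely Brca1, Fancd2, Fanci, Xrcc4 and Parp2. The 11 genes of replication licensing summed to 75.9, 103, 48.0 and 68.3, and that order, with the DKO array lowest, was shared by 15 of the 50 (9.43% of all genes), among them H2afx, Brca2, Bard1, Blm, Rad54l, Clspn and Topbp1. Licensing genes had medians of -0.36, -0.44 and -0.64 in DKO MEFs, on the array labelled G2KO and between the WT arrays. The part of the cell cycle in these ratios was not tested.

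**Figure D4:**
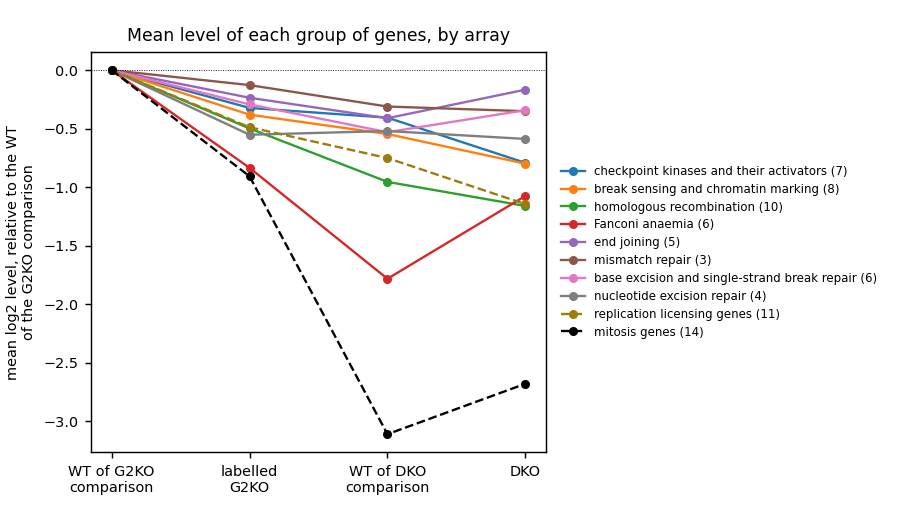
Mean log2 level of each group of genes on each array, minus its mean on the G2-paired WT array, with the number of genes in brackets; lines only join the points of a group. The Fanconi anaemia genes (red) are lowest on the DKO-paired WT array, as are the mitosis genes (black, dashed), whereas the recombination genes (green) and the licensing genes (dashed) are lowest on the DKO array.

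Promoters were read for shared sequence. A window from 250 bases before to 50 bases after the start of transcription was found for 42 of the 50 genes in RefSeq (build GRCm38.p6). The 4 words TTTCCCGC, TTTCGCGC, TTTGCCGC and TTTGGCGC, read on both strands, are forms of the site bound by E2F factors, which drive genes of S phase. They occurred in 10 of the 42 (23.8%) and in 2.60% of 27025 genes with such a window, without matching for base composition. The 10 genes were Topbp1, Clspn, Chek2, Mdc1, Brca2, Bard1, Fancg, Xrcc6, Msh3 and Msh6. Other words were less far from the genome. CCAAT occurred in 54.8% against 41.1%, the ETS word CCGGAAG in 26.2% against 9.93%, and TTTGAA or TTCGAA, forms of the cell cycle homology region, in 9.52% against 21.7%.

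Between the WT arrays the genes with an E2F word had a median log2 ratio of -0.54 and those without one -0.50, in DKO MEFs the medians were -0.25 and -0.22, and on the array labelled G2KO -0.35 and -0.49. Windows are shown for 4 genes with and without the word, with the E2F words in capitals. Bard1 and Clspn hold 1 word each and were past 2-fold between the WT arrays. Msh3 holds 2 overlapping words and stayed within 2-fold, and Fanci, past 7-fold, holds none in its window.
Clspn, chr4:126556730-126557029, plus strand: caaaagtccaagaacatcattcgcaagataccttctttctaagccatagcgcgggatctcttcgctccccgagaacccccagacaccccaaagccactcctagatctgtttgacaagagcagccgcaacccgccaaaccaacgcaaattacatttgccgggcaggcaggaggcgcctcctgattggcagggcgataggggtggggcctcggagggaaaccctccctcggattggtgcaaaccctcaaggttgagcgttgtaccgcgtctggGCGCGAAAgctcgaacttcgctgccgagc
Bard1, chr1:71102923-71103222, minus strand: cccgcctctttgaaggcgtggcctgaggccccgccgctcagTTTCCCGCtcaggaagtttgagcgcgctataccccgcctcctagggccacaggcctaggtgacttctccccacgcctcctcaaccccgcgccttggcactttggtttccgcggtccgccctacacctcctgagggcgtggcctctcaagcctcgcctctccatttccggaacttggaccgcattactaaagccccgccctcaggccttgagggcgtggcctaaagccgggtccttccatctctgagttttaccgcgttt
Msh3, chr13:92354954-92355253, minus strand: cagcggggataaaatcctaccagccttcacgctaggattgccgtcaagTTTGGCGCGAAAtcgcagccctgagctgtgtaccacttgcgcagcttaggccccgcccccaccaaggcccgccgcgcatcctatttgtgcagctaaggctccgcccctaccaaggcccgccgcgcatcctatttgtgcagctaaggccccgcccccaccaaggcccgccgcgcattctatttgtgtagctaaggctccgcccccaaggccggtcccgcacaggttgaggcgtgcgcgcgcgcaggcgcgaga
Fanci, chr7:79392088-79392387, plus strand: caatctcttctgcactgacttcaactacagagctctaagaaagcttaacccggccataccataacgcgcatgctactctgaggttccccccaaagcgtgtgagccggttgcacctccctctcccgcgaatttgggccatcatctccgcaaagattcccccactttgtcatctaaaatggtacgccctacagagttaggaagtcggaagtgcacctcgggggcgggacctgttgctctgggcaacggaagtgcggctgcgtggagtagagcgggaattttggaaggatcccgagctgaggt
Counted from the start of transcription, the first word begins at position -209 in Bard1, -202 in Msh3 and 21 in Clspn.

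The wider damage response was read through 67 more genes found by name. In DKO MEFs 4 of them were at least 2-fold higher and 5 lower than on their WT array, with a median log2 ratio of -0.01, or 13.4% in either direction against 20.3% of all genes. Furthest up were Mgmt, which removes alkyl groups from guanine, with 4.29, Polk, a bypass polymerase, with 2.25, and Ercc5, a nuclease of excision repair, with 1.64. Furthest down were Fancf with -1.85, Tipin, a fork protection factor, with -1.26, and Fance with -1.14. Fancf and Fance thus lay opposite to Fanca, Fancg and Fancd2 in the same comparison. Mgmt had levels of 0.350 on the array labelled G2KO, 1.32 on the G2-paired WT array, 5.99 on the DKO array and 0.307 on the DKO-paired WT array, a difference of 19.5-fold between DKO MEFs and their WT. The DKO array stood above both WT arrays.

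On the array labelled G2KO, 12 of the 67 genes were at least 2-fold lower than on its WT array and 2 higher, with a median of -0.54, or 20.9% against 17.1% of all genes. Ddb2, a damage sensor, had 1.29, Dclre1c, the nuclease Artemis, 1.07 and Mpg, a glycosylase, 0.70. Mgmt had -1.92, Poli, a bypass polymerase, -1.45 and Mus81, a nuclease of branched DNA, -1.40. Between the WT arrays 5 were higher and 27 lower, with a median of -0.72, or 47.8% against 21.6% of all genes. There Ddb2 had 1.86, Aptx 1.19 and Recql5 1.16, against -2.24 for Mlh3, -2.23 for Gen1 and -2.11 for Mgmt. Of 18 p53 target genes, 11 were at least 2-fold higher (10.6% of all genes) and 1 lower (9.61%) in DKO MEFs, with a median of 1.57. The 1 lower gene was Ccng1, which is deleted there. For the array labelled G2KO 12 were lower (8.37%) and 2 higher (8.74%), with a median of -1.37. Between the WT arrays 1 was higher (11.7%) and 10 lower (9.92%), with a median of -1.51.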

How the data were processed

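The members and all gene lists were chosen with earlier results of these data known. The authors deposited signal intensity per spot from Agilent Feature Extraction (10.7.3.1 in the file headers, 10.5.1.1 in the labels), background-corrected within each array. The labels describe single-color arrays for all 4 samples, whereas the study's methods describe dye swaps for G2KO. Control spots (1377 per array) and 107 to 140 flagged spots were left out, spots of a probe were averaged, and each intensity was divided by the array's 75th percentile (1586.21 to 2233.61) before log2. All arrays were on 1 slide, so the slide is no batch, but this says nothing of batches of MEF or RNA preparation. The probe brightest over the 4 arrays stood for a gene. Genes well above background on at least 1 array of a pair were compared, and a dim side was set to the lowest signal well above background. Values are given for members past 2-fold, with probes that disagreed by over 1, or brightest or dimmest in their group, and for the 3 other repair genes furthest each way; of the remaining lists only counts, medians and sums are given. Alternatives were normexp background correction (offset 50), quantile, median or no scaling, other filters, probes, thresholds and WT arrays, limma 3.58.1 (R 4.3.3), and centring, which was added after seeing the data. The calculations were tested on simulated data. Python 3.11.15, numpy 2.4.6 and pandas 2.3.3 were used.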

Additional observations from a re-analysis of the deposited data

Results flagged for a closer look

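By the labels, Fancd2 was the 1 member that passed 2-fold in opposite directions in the knockout comparisons. Its log2 ratio was 1.07 in DKO MEFs over their WT and -1.55 on the array labelled G2KO over its WT. This difference was not tested. With the G2KO and WT labels of that pair exchanged, the second sign would turn and both ratios would be positive. Limma with both WT arrays as 1 group gave adjusted p = 0.988 for DKO and 1 for the array labelled G2KO. Without scaling between arrays, the ratio in DKO MEFs fell just under 2-fold. With normexp background correction the values were 0.67 and -1.24. With the WT arrays exchanged between the comparisons they were -2.42 and 1.95, so both signs turned with the choice of WT array, whose levels of 0.228 and 0.0202 lay outside those of both knockouts.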

How the results depend on the processing

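No paired analysis was possible because the labels give no replicate numbers and each group has 1 array. Over the alternatives, 28 counts and 23 medians of the members stayed near the values reported, 11 counts and 6 medians moved and 2 medians reversed. Changing the background filter could not move a member value, because all 50 genes were well above background on all 4 arrays. Those settings are nevertheless counted among the values that stayed. With the WT array of the other comparison, the count in DKO MEFs was 14 in place of 6 (0 higher and 14 lower). That is 28% of the members, against 25.8% of all genes in this setting and 22.4% of those well above background on all 4 arrays. The median in DKO MEFs was -0.70, and the median on the array labelled G2KO reversed to 0.24. With both WT arrays averaged, the median in DKO MEFs was -0.43. On the array labelled G2KO the count was then 0 (8.25% of all genes) and the median -0.0765. Without scaling, the median of the array labelled G2KO reversed to 0.0897 and that between the WT arrays was -0.26 with a count of 9, while the median of all genes shifted to 0.33 and 0.17; relative to it the members were at -0.24 and -0.42, against -0.23 and -0.42 with scaling. The count of 9 between the WT arrays without scaling stood beside 23% of all genes. Scaling to the array median gave -0.68 between the WT arrays, and centring on all genes gave -0.23 for the array labelled G2KO. At 1.5-fold the counts were 17 in DKO MEFs (38.1% of all genes), 17 on the array labelled G2KO (37.4%) and 25 between the WT arrays (40.6%). At 4-fold they were 0 (8.07%), 1 (5.73%) and 4 (7.39%) in that order. Limma with both WT arrays as 1 group (1 residual degree of freedom) gave 0 members at an adjusted p of 0.05 in either contrast, and 0 members at that unadjusted p, where 2043 and 410 of 24492 genes passed unadjusted and 0 adjusted. The cause of these changes was not tested. The lowest signals, such as those of Brca1 and Fancd2, lie near background, and single arrays set the limit for every ratio.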
